A study of Mus musculus with 9 samples.

Results

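The aminoacyl-tRNA synthetases are described here across neural stem cells (NSCs) from the subventricular zone of adult mice that were kept dividing or were treated with BMP4. The rule used gene names and no measured value: 35 synthetase genes were matched by Ensembl identifier among the 55704 genes of the expression table, 19 of them for cytosolic enzymes and 16 for mitochondrial enzymes, whose symbols end in 2. The 35 genes all passed the filter on low values, and so belong to the 20207 genes tested. The aspartyl enzymes were not analysed here.

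Bulk RNA-seq had been made from 9 libraries in 3 groups of 3. In the first group, NSCs of C57BL/6 mice were collected at day 0 in proliferation medium with bFGF and EGF (bFGF/EGF-treated NSCs); in the second, EGF was replaced by BMP4 and bFGF was kept for 6 days (bFGF/BMP4-treated NSCs); in the third, BMP4 was given alone for 6 days (BMP4-treated NSCs), each factor at 20 ng/ml. The cells of all groups had been isolated from mice of 8 to 9 weeks, with 2 females and 2 males pooled in an isolation, and passaged several times, and those given BMP4 had been plated on poly-L-ornithine and laminin. The bFGF/EGF libraries therefore differ from the others in factors and also in days of culture. The paper also gives B27 without vitamin A for the proliferation medium and plain B27 for the media with BMP4. It describes the plating only for cells given BMP4. These differences cannot be told apart. Nothing in the labels says whether the 3 libraries of a group came from separate isolations, so p-values measure the spread between these libraries, which may be technical.

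An aminoacyl-tRNA synthetase joins an amino acid to its tRNA, and each charged tRNA then feeds the ribosome. Cells make a cytosolic set of these enzymes and a second set, encoded by other nuclear genes, that is imported into mitochondria, although Gars1 and Kars1 each serve both compartments and Eprs1 charges glutamate and proline with a single protein. Several cytosolic enzymes are joined with the scaffold proteins Aimp1, Aimp2 and Eef1e1 in the multisynthetase complex. Many cytosolic synthetase genes are targets of ATF4, the transcription factor of the amino acid response, which binds the C/EBP-ATF response element, and demand for the enzymes follows protein synthesis, which is known to be low in quiescent stem cells.

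The promoter letters of 5 cytosolic genes are shown because these windows hold a C/EBP-ATF response element and because 3 of the 5 genes, Aars1, Iars1 and Yars1, were lower with BMP4 alone than with bFGF/BMP4. The element was searched as TGATGNAA on both strands of RefSeq promoters (GRCm38.p6, 250 bases before to 50 after the start), of which 26 of the 35 genes had an entry. Each line gives 52 bases on the strand of the gene, 5′ to 3′, with the element in capitals as it reads on that strand.
Aars1: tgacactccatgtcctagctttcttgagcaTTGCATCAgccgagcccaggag
Gars1: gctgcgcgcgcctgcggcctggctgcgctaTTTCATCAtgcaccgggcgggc
Iars1: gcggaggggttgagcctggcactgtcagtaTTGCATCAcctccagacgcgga
Tars1: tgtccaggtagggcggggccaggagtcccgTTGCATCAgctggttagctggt
Yars1: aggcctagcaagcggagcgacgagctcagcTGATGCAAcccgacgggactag
The Aars1 window lies at chr8:111033700-111033751 on the plus strand, with the element starting 112 bases before the start, and a second match in this promoter starts 9 bases after it. The Gars1 window lies at chr6:55037941-55037992 on the plus strand, with the element 30 bases before the start. The Iars1 window lies at chr13:49682107-49682158 on the plus strand, with the element 7 bases after the start. The Tars1 window lies at chr15:11399652-11399703 on the minus strand, with the element 15 bases before the start. The Yars1 window lies at chr4:129189876-129189927 on the plus strand, with the element 3 bases after the start. All 5 promoters thus held a match that starts within 30 bases of the start.

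Of the 12 cytosolic genes with a promoter entry, 5 (41.7%) held the element, against 0 of 14 mitochondrial genes and 4.51% of the promoters of 27025 genes. Of 24 genes of the amino acid response with an entry, 7 (29.2%) held it. The E-box CACGTG, which reads the same on both strands and overlapped none of the elements in these genes, was found in 4 of the 12 cytosolic promoters (33.3%; Aars1, Farsb, Iars1 and Tars1), in 1 of the 14 mitochondrial promoters (7.14%; Ears2) and in 8.09% of all. Gars1 and Tars1 held the C/EBP-ATF response element and were not called between BMP4 and bFGF/BMP4. Of the cytosolic genes called lower there, Mars1 had an entry without the element, and Cars1 and Vars1 had no entry. These matches describe letters in a window, not binding, and their relation to the levels was not tested.

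Depth was alike in the 9 libraries, with 15892851 to 17262981 fragments on genes, and the synthetases were covered by between 85 fragments (Pars2, lowest library) and 6644 (Aars1, highest library). The FPKM values of the second BMP4 library summed to 326302 over all genes, against 256230 to 294652 in the other 8, although it was the lowest of its group for some synthetases, such as Vars1 and Wars2. The label of neural stem cells was checked on markers: Sox2 had a mean of 167 FPKM in bFGF/EGF-treated, 137 in bFGF/BMP4-treated and 137 in BMP4-treated NSCs, whereas Nes, which encodes Nestin, went from 151 to 3.55 and 15.8. Of the 7 stem cell markers, 4 were lower (Nes, Fabp7, Vim and Prom1) and 2 higher (Slc1a3 and Msi1) with bFGF/BMP4 than with bFGF/EGF, and 1 was lower (Nes) and 3 higher (Slc1a3, Msi1 and Prom1) with BMP4. The summed level of 7 microglial markers reached at most 1.74 FPKM and that of 7 vascular and mural markers at most 5.41 FPKM, with Itgam, C1qa and Cldn5 at 0 in every group. Of 7 astrocyte markers, 6 were called higher in each treated group than in bFGF/EGF-treated NSCs. The other, Aldh1l1, was lower, with means of 135, 24.2 and 58.1 FPKM (log2 fold changes -2.46 with bFGF/BMP4 and -1.21 with BMP4). Between the treated groups, 5 were higher with BMP4 and 1, Slc1a2, was lower (-1.43), beside 12.2% and 8.89% of all genes. The sum of the 7 ranged from 178 to 243 FPKM with bFGF/EGF, from 673 to 768 with bFGF/BMP4 and from 3691 to 4573 with BMP4, where Gfap made up most of it. Of 5 ependymal markers, 4 were tested and were higher in BMP4-treated NSCs (sum 58 to 70.1 FPKM, Foxj1 55.1 on average) than in bFGF/EGF-treated NSCs (7.87 to 12.4 FPKM). Beside these counts, 25.0% of all genes were called higher and 23.6% lower with bFGF/BMP4, and 29.6% and 25.3% with BMP4, against bFGF/EGF. The part of these cell states in the results below was not tested, and in bulk samples fewer cells of a type and less RNA per cell cannot be told apart.

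Of the 19 cytosolic synthetase mRNAs, 17 fell with bFGF/BMP4 and 18 with BMP4 against bFGF/EGF, while the 16 mitochondrial mRNAs were divided between rises, falls and no call. The summed level of the 19 cytosolic genes was 740, 804 and 750 FPKM in the bFGF/EGF libraries, 340, 348 and 385 FPKM in the bFGF/BMP4 libraries, and 270, 319 and 281 FPKM in the BMP4 libraries. The 3 groups did not overlap on this sum. The sum of the 16 mitochondrial genes was 93.1, 101 and 101 FPKM in the bFGF/EGF libraries, 86.3, 80.2 and 89.8 FPKM in the bFGF/BMP4 libraries, and 84.2, 87.2 and 87.2 FPKM in the BMP4 libraries, so both treated groups lay below the control group and overlapped with each other. The ratio of the cytosolic to the mitochondrial sum was 7.77 ± 0.32 (SD, n = 3) in bFGF/EGF-treated NSCs, 4.19 ± 0.22 in bFGF/BMP4-treated NSCs and 3.36 ± 0.26 in BMP4-treated NSCs, and this ratio does not depend on how a library was scaled. After each library was rescaled to 1 common total (TPM scale), the cytosolic sums of the BMP4 libraries were 969, 977 and 1009, against 1243, 1246 and 1361 with bFGF/BMP4 and 2643, 2730 and 2928 with bFGF/EGF, and the wider spread of the second BMP4 library was gone. In fragments, the cytosolic genes took 0.373% ± 0.017 of all fragments on genes in bFGF/EGF-treated NSCs, 0.174% ± 0.0072 with bFGF/BMP4 and 0.138% ± 0.007 with BMP4.

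**Figure D1:**
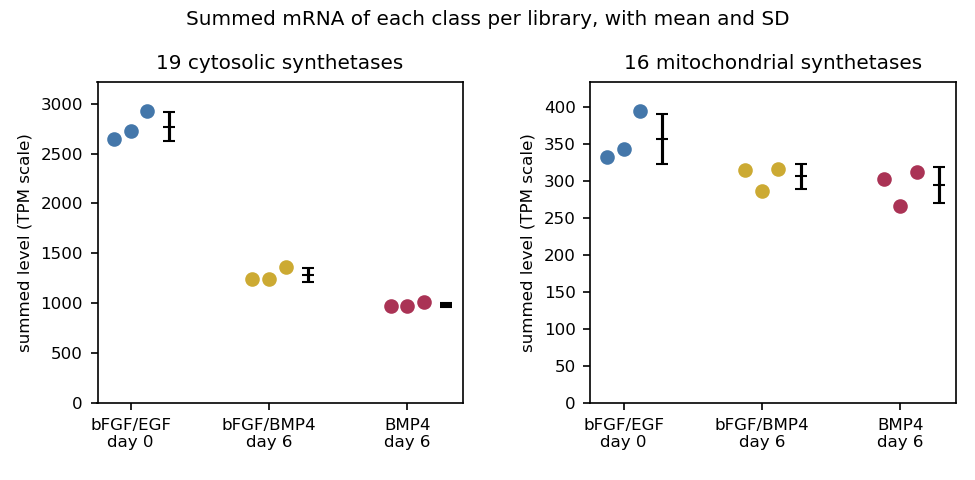
Summed level of the 19 cytosolic (left) and 16 mitochondrial (right) synthetase genes in each library after rescaling to 1 common total (TPM scale), by group; colored points are libraries and the black mark with bar is the mean with SD of 3 libraries. The cytosolic sum lay between 2643 and 2928 in bFGF/EGF, 1243 and 1361 in bFGF/BMP4 and 969 and 1009 in BMP4 libraries, while the mitochondrial sum stayed between 267 and 395 in all 9.

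Each gene was tested with limma on log2(FPKM + 0.1) across all 20207 genes, and a gene was called at an adjusted p of at most 0.05 (Benjamini-Hochberg), so fold changes are on that log2 scale. In bFGF/BMP4-treated against bFGF/EGF-treated NSCs, 17 of the 19 cytosolic genes were lower and 0 higher, where 23.6% of all genes were called lower and 25.0% higher. At least 2-fold, 10 were lower, against 14.1% of all genes lower and 16.5% higher by this rule. The median log2 fold change was -1.01 over the cytosolic genes and 0.06 over all genes, and in 17 of the 19 all 3 treated libraries lay below all 3 control libraries, as in 27.5% of all genes.

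In BMP4-treated against bFGF/EGF-treated NSCs, 18 of the 19 cytosolic genes were lower and 0 higher, where 25.3% of all genes were lower and 29.6% higher. At least 2-fold, 15 were lower, against 15.4% of all genes lower and 21.3% higher. The median log2 fold change was -1.29, against 0.10 over all genes, and the groups did not overlap for 18 genes (27.8% of all genes lay below in this way). These comparisons share the bFGF/EGF libraries.

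In BMP4-treated against bFGF/BMP4-treated NSCs, where both groups had 6 days in BMP4, 6 cytosolic genes were lower (Aars1, Cars1, Iars1, Mars1, Vars1 and Yars1) and 0 higher, where 8.89% of all genes were lower and 12.2% higher. None of the 6 reached 2-fold, which 5.14% of all genes did downward and 8.41% upward. The median log2 fold change was -0.23 against 0.00 over all genes, and the BMP4 libraries lay below the bFGF/BMP4 libraries for 10 of the 19 genes (18.3% of all genes).

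Markers of proliferation moved in the same comparisons. All 7 (Mki67, Top2a, Cdk1, Ccnb1, Mcm2, Mcm5 and Pcna) were lower in both treated groups than in bFGF/EGF-treated NSCs, and 6 of 7 were lower with BMP4 than with bFGF/BMP4. Of all genes, 23.6%, 25.3% and 8.89% were lower in these comparisons. The summed level of the 7 markers ranged from 289 to 556 FPKM in the bFGF/EGF, from 72.2 to 119 in the bFGF/BMP4 and from 39 to 52.8 in the BMP4 libraries. Their part in the fall of the cytosolic synthetases was not tested.

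**Figure D2:**
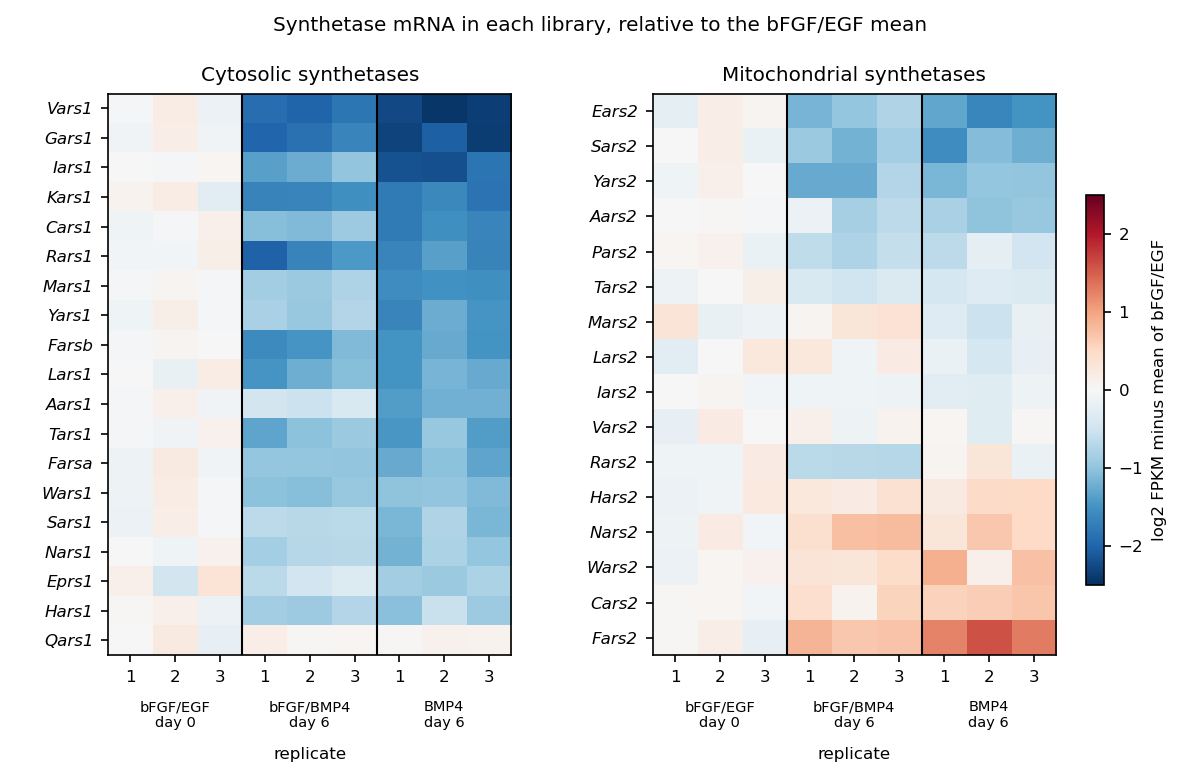
Heat map of log2 FPKM in each of the 9 libraries (columns, 3 replicates per group) minus the mean of the bFGF/EGF libraries, for the cytosolic (left) and mitochondrial (right) synthetase genes, ordered within each class by the log2 fold change of BMP4 against bFGF/EGF; blue is lower and red is higher. Nearly the whole cytosolic panel is blue in the 6 treated libraries except for Qars1, and the mitochondrial panel is divided between lower genes such as Ears2 and higher genes such as Fars2.

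The largest falls of the cytosolic set were those of the valyl and glycyl enzymes. Vars1 (ENSMUSG00000007029, GRCm39 chr17:35219871-35235305), which charges valine, measured 48.3, 55.9 and 44.5 FPKM in the bFGF/EGF libraries, 13.1, 12.4 and 14.1 FPKM with bFGF/BMP4, and 10.3, 9.14 and 9.61 FPKM with BMP4. The 3 groups did not overlap. Its log2 fold change was -1.89 (SE 0.12, adjusted p = 1.2e-06) with bFGF/BMP4 and -2.34 (SE 0.12, adjusted p = 2.5e-07) with BMP4 against bFGF/EGF, and its mean was 5.12-fold lower in the latter. BMP4 against bFGF/BMP4 gave -0.44 for Vars1 (adjusted p = 0.022), a call that was lost when the first or the third bFGF/BMP4 library or the second or the third BMP4 library was left out (-0.52 to -0.39 over all alternatives).

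Gars1 (ENSMUSG00000029777, chr6:55014927-55061231) encodes the glycyl enzyme of both compartments and was the most abundant synthetase mRNA of dividing NSCs. It measured 96.8, 115 and 96.9 FPKM with bFGF/EGF, 25.9, 28.1 and 32.7 FPKM with bFGF/BMP4 and 20.5, 24.8 and 19.7 FPKM with BMP4, without overlap between the groups. The log2 fold changes of Gars1 against bFGF/EGF were -1.83 (SE 0.14, adjusted p = 4e-06) and -2.24 (SE 0.14, adjusted p = 7.6e-07). The value between the treated groups, -0.41, did not pass the test (adjusted p = 0.057), but did on the TPM scale, without the second bFGF/EGF library, and without the second BMP4 library.

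Rars1 (ENSMUSG00000018848, chr11:35699207-35725375), the arginyl enzyme of the multisynthetase complex, measured 37.2, 37.1 and 43.1 FPKM with bFGF/EGF, 9.64, 12.3 and 14.5 FPKM with bFGF/BMP4 and 12.5, 15.2 and 12.3 FPKM with BMP4. Both treated groups lay below the control group and overlapped with each other. The log2 fold change was -1.70 (SE 0.16, adjusted p = 1.8e-05) with bFGF/BMP4 and -1.55 (SE 0.16, adjusted p = 2.1e-05) with BMP4. Kars1, the lysyl enzyme of both compartments, had the next largest value with bFGF/BMP4, -1.62 (48.7 to 15.7 FPKM on average), and -1.73 with BMP4, with -0.11 (adjusted p = 0.63) between the treated groups.

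Iars1, Aars1 and Mars1 had the largest differences between the treated groups. Iars1 (ENSMUSG00000037851, chr13:49835576-49887745), the isoleucyl enzyme, measured 39.3, 37.6 and 40.5 FPKM with bFGF/EGF, 15.2, 16.5 and 19.7 FPKM with bFGF/BMP4 and 8.63, 8.55 and 11.1 FPKM with BMP4. The levels formed 3 separate groups. The log2 fold change of Iars1 was -1.20 with bFGF/BMP4 (adjusted p = 6.7e-05) and -2.05 with BMP4 (adjusted p = 1.5e-06) against bFGF/EGF, and -0.86 (SE 0.14, adjusted p = 0.0016) between the treated groups.

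Aars1 (ENSMUSG00000031960, chr8:111754391-111784296), the alanyl enzyme, measured 40.9, 45.3 and 39.3 FPKM with bFGF/EGF, 30.3, 28.6 and 32.2 FPKM with bFGF/BMP4 and 15.8, 18.2 and 18.1 FPKM with BMP4. It too formed 3 separate groups, but most of its fall lay between bFGF/BMP4 and BMP4: -0.46 (SE 0.11, adjusted p = 0.0055) with bFGF/BMP4 against bFGF/EGF, and -0.81 (SE 0.11, adjusted p = 0.0005) from bFGF/BMP4 to BMP4. Mars1 (ENSMUSG00000040354, chr10:127128344-127147776), the methionyl enzyme, measured 45.6, 49.4 and 46.3 FPKM, then 25.7, 24.9 and 27.5 FPKM, then 16.1, 16.4 and 16.3 FPKM in the same order of groups. Its log2 fold changes were -0.85 (adjusted p = 4.6e-05), -1.53 (adjusted p = 7.9e-07) and, between the treated groups, -0.67 (SE 0.09, adjusted p = 0.0006). Mars1 shares 0.554% of its exon bases with the opposite-strand gene Ddit3, so that reads in common can be few.

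Among the other cytosolic genes, Cars1 (cysteine) and Yars1 (tyrosine) were the remaining calls between the treated groups, with -0.61 (adjusted p = 0.005; 6.67 against 4.33 FPKM) and -0.62 (adjusted p = 0.0074; 19.1 against 12.5 FPKM). The enzymes Farsa and Farsb, which are the alpha and beta subunits for phenylalanine and work as a tetramer, fell in both treatments, by log2 fold changes of -0.97 and -1.38 with bFGF/BMP4 and of -1.19 and -1.41 with BMP4, and neither was called between the treated groups. The genes Hars1, Lars1, Nars1, Sars1, Tars1 and Wars1 had log2 fold changes between -1.25 and -0.67 with bFGF/BMP4 and between -1.29 and -0.84 with BMP4 against bFGF/EGF, all called, and between -0.34 and -0.01 between the treated groups, none called; Sars1 (-0.34, adjusted p = 0.11) was called on the TPM scale and without the second BMP4 library.

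The exceptions of the cytosolic set, described here after their values were seen, were Qars1 and Eprs1. Qars1 (ENSMUSG00000032604, chr9:108384905-108393140), the glutaminyl enzyme, measured 6.95, 8.14 and 6.09 FPKM with bFGF/EGF, 7.82, 7.13 and 7.24 FPKM with bFGF/BMP4 and 7.14, 7.54 and 7.43 FPKM with BMP4. The groups overlapped in every comparison, and the log2 fold changes of Qars1 were 0.08, 0.07 and 0.00, between -0.08 and 0.18 over all alternatives. Qars1 had the lowest level of the 19 genes in dividing NSCs and no mitochondrial counterpart, since mitochondria make glutaminyl-tRNA by amidation. Eprs1 (ENSMUSG00000026615, chr1:185095101-185161840) measured 17.5, 11.6 and 20.2 FPKM with bFGF/EGF, 10.1, 11.5 and 12.6 FPKM with bFGF/BMP4 and 8.75, 8.4 and 9.19 FPKM with BMP4. The second bFGF/EGF library lay within the range of the bFGF/BMP4 libraries, and the log2 fold change with bFGF/BMP4 was -0.49 (SE 0.19, adjusted p = 0.055). Eprs1 was called lower there in 5 of 17 alternatives. These were leaving out that library, a mean FPKM of at least 1, median-ratio scaling, limma-voom and the replicate block. With BMP4, Eprs1 was lower by -0.86 (adjusted p = 0.0032).

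**Figure D3:**
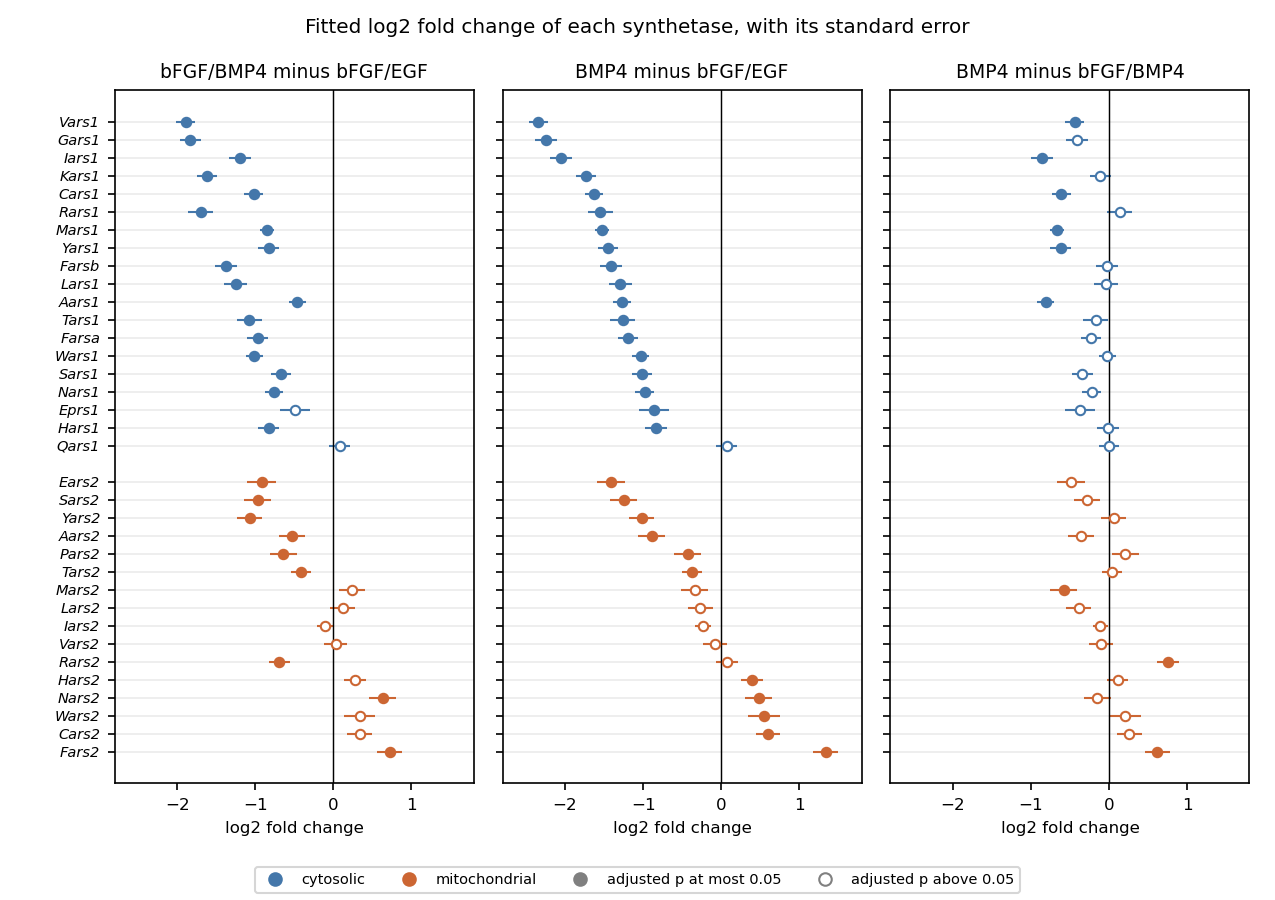
Fitted log2 fold change with its standard error for each synthetase in the 3 comparisons, cytosolic genes in blue and mitochondrial genes in orange, with filled points where the adjusted p was at most 0.05. Against bFGF/EGF the blue points lie left of 0 except for Qars1 and the orange points spread from -1.41 (Ears2) to 1.34 (Fars2) with BMP4, and between the treated groups most points of both classes lie within 0.5 of 0.

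By structural type, the class I enzymes (9 cytosolic genes, whose catalytic domain is a Rossmann fold) and the class II enzymes (9 genes) were both mostly lower than with bFGF/EGF: 8 and 9 genes were lower with bFGF/BMP4, with medians of -1.02 and -0.97, and 8 and 9 with BMP4, with medians of -1.53 and -1.26. Between the treated groups, 5 of the class I genes and 1 of the class II genes (Aars1) were lower, with medians of -0.44 and -0.22. Eprs1 joins an enzyme of each class and was left out of both lists, which were added after the values were seen. The shares of all genes called lower were 23.6% with bFGF/BMP4, 25.3% with BMP4 and 8.89% between the treated groups. No difference between the class I and class II lists was tested.

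Of the 7 enzymes of the multisynthetase complex, 5 were lower with bFGF/BMP4 (median -1.20) and 6 with BMP4 (median -1.53) than with bFGF/EGF, and 2 (Iars1 and Mars1) were lower with BMP4 than with bFGF/BMP4 (median -0.11). The shares of all genes called lower were 23.6%, 25.3% and 8.89% in the same order of comparisons. The scaffold genes fell with the enzymes in the comparisons with bFGF/EGF. Eef1e1 went from 20.9 to 6.43 and 6.79 FPKM (log2 fold changes -1.70, adjusted p = 3.4e-05, and -1.62, adjusted p = 3.4e-05), Aimp2 from 16.1 to 6.11 and 7 FPKM (-1.38 and -1.20), and Aimp1 from 12.3 to 5.51 and 5.9 FPKM (-1.13 and -1.06). The scaffold genes had values of 0.07 to 0.18 between the treated groups, none called.

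The 12 cytosolic genes listed as ATF4 targets and the other 7 were set side by side. With bFGF/BMP4, 11 of the 12 and 6 of the 7 were lower, with medians of -0.93 and -1.38. With BMP4, 12 of the 12 and 6 of the 7 were lower, with medians of -1.28 and -1.41. Between the treated groups, 5 of the 12 (Aars1, Cars1, Iars1, Mars1 and Yars1) and 1 of the 7 (Vars1) were lower, with medians of -0.39 and -0.03. The log2 fold changes there were negative for 12 of the 12, from -0.86 to -0.02. They were also negative for 6 of the 7, with a range of -0.44 to 0.14. A negative value was found for 10017 of the 20207 genes tested. Of all genes, 23.6%, 25.3% and 8.89% were lower in these comparisons. The difference between the lists was not tested.

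The mitochondrial synthetases went in both directions. With bFGF/BMP4 against bFGF/EGF, 2 of 16 were higher (Fars2 and Nars2) and 7 lower (Aars2, Ears2, Pars2, Rars2, Sars2, Tars2 and Yars2), beside 25.0% higher and 23.6% lower over all genes, with a median log2 fold change of -0.04. With BMP4, 5 were higher (Cars2, Fars2, Hars2, Nars2 and Wars2) and 6 lower (Aars2, Ears2, Pars2, Sars2, Tars2 and Yars2), beside 29.6% and 25.3% over all genes, with a median of -0.25. Between the treated groups, 2 were higher with BMP4 (Fars2 and Rars2) and 1 lower (Mars2), beside 12.2% and 8.89%, with a median of -0.03. Iars2, Lars2 and Vars2, for isoleucine, leucine and valine, were called in no comparison, with log2 fold changes between -0.39 and 0.12; on the TPM scale, with median-ratio scaling, with limma-voom and without the third BMP4 library, Iars2 was called lower with BMP4 than with bFGF/EGF.

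Fars2 (ENSMUSG00000021420, chr13:36301324-36910254), the mitochondrial phenylalanyl enzyme, had the largest rise of the 35 genes. It measured 2.18, 2.4 and 1.86 FPKM with bFGF/EGF, 3.86, 3.4 and 3.51 FPKM with bFGF/BMP4 and 5.03, 6.45 and 5.27 FPKM with BMP4. The 3 groups did not overlap. The log2 fold change of Fars2 was 0.72 (SE 0.16, adjusted p = 0.0034) with bFGF/BMP4, 1.34 (SE 0.16, adjusted p = 5.2e-05) with BMP4, and 0.62 (SE 0.16, adjusted p = 0.018) between the treated groups; the last call was lost without the second or the third bFGF/BMP4 or the second BMP4 library (0.51 to 0.69 over all alternatives).

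Nars2 (ENSMUSG00000018995, chr7:96600689-96717097), the asparaginyl enzyme, measured 2.58, 3.25 and 2.7 FPKM with bFGF/EGF, 3.71, 4.75 and 4.92 FPKM with bFGF/BMP4 and 3.47, 4.54 and 4.02 FPKM with BMP4. Both treated groups lay above the control group and overlapped with each other. The log2 fold changes of Nars2 were 0.63 (SE 0.17, adjusted p = 0.012) and 0.48 (SE 0.17, adjusted p = 0.035), the second of which was not called on the TPM scale or without the first or the third bFGF/EGF or the second or the third BMP4 library (0.38 to 0.58 over all alternatives).

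Cars2, Wars2 and Hars2 were called higher only in the comparison of BMP4 with bFGF/EGF, though the differences from the other comparisons were not tested. Cars2 (ENSMUSG00000056228, chr8:11558417-11600875), the cysteinyl enzyme, measured 2.28, 2.29 and 2.12 FPKM with bFGF/EGF, 2.98, 2.38 and 3.28 FPKM with bFGF/BMP4 and 3.32, 3.4 and 3.58 FPKM with BMP4, without overlap between the groups. Its log2 fold change with BMP4 was 0.60 (SE 0.16, adjusted p = 0.0082), and 29.1% of its exon bases lie opposite to exons of Naxd. Wars2 (ENSMUSG00000004233, chr3:99047954-99146502), the tryptophanyl enzyme, measured 1.8, 2.07 and 2.14 FPKM with bFGF/EGF, 2.49, 2.48 and 2.73 FPKM with bFGF/BMP4, and 3.68, 2.17 and 3.31 FPKM with BMP4.

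For Wars2, the second BMP4 library lay just above the control range, and the call (log2 fold change 0.55, SE 0.20, adjusted p = 0.041) was lost in 14 of 17 alternatives and in every one that left out a library other than this one. Hars2 (ENSMUSG00000019143, chr18:36916061-36925615), the histidyl enzyme, measured 6.42, 6.66 and 8.38 FPKM with bFGF/EGF, 8.47, 8.23 and 9.28 FPKM with bFGF/BMP4 and 8.26, 9.94 and 9.99 FPKM with BMP4. The groups overlapped, and the call with BMP4 (log2 fold change 0.39, SE 0.14, adjusted p = 0.035) was lost in 8 of 17 alternatives, among them the TPM scale and leaving out the first or second bFGF/EGF or the second or the third BMP4 library. Hars2 and its cytosolic counterpart Hars1 lie head to head with starts 197 bases apart, and Hars1 went the other way: it was lower with BMP4 by -0.84 (adjusted p = 0.00063).

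The falls of the mitochondrial set were led by the glutamyl, seryl and tyrosyl enzymes. Ears2 (ENSMUSG00000030871, chr7:121635056-121666864), the glutamyl enzyme, measured 3.19, 4.26 and 3.99 FPKM with bFGF/EGF, 1.69, 1.94 and 2.26 FPKM with bFGF/BMP4 and 1.54, 1.22 and 1.34 FPKM with BMP4. The 3 groups did not overlap. Its log2 fold changes against bFGF/EGF were -0.92 (SE 0.18, adjusted p = 0.0022) and -1.41 (SE 0.18, adjusted p = 0.00012), with -0.49 (adjusted p = 0.096) between the treated groups.

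Sars2 (ENSMUSG00000070699, chr7:28441392-28454494), the seryl enzyme, measured 6.89, 7.75 and 6.18 FPKM with bFGF/EGF, 3.61, 3.03 and 3.82 FPKM with bFGF/BMP4 and 2.36, 3.24 and 2.98 FPKM with BMP4. Both treated groups lay below the control group, with log2 fold changes of -0.97 (SE 0.17, adjusted p = 0.00081) and -1.25 (SE 0.17, adjusted p = 0.00012) for Sars2. Yars2 (ENSMUSG00000022792, chr16:16120366-16157367), the tyrosyl enzyme, measured 10.1, 11.8 and 10.7 FPKM with bFGF/EGF, 4.55, 4.53 and 6.52 FPKM with bFGF/BMP4 and 4.93, 5.57 and 5.51 FPKM with BMP4. Yars2 was the only mitochondrial gene at least 2-fold lower with bFGF/BMP4 (-1.07, SE 0.16, adjusted p = 0.00033) and was as far down with BMP4 (-1.02, adjusted p = 0.00037); 31.4% of its exon bases lie opposite to exons of Dnm1l. Aars2, Pars2 and Tars2, for alanine, proline and threonine, had log2 fold changes between -0.64 and -0.41 with bFGF/BMP4 and between -0.89 and -0.37 with BMP4. The call of Pars2 with BMP4 (adjusted p = 0.048) was lost in 10 of 17 alternatives, which include leaving out any library but the third bFGF/EGF and second BMP4 ones. That of Aars2 with bFGF/BMP4 (adjusted p = 0.029) was lost in 6 of 17, among them leaving out any bFGF/EGF library or the second or the third bFGF/BMP4 library. The calls of Tars2 were lost without the third bFGF/EGF library, that with bFGF/BMP4 also without the second bFGF/BMP4 library, and that with BMP4 also without the first or the third BMP4 library and with the replicate block.

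Rars2 was the only synthetase called in opposite directions. Rars2 (ENSMUSG00000028292, chr4:34614638-34660904), the mitochondrial arginyl enzyme, measured 10.6, 10.6 and 13.1 FPKM with bFGF/EGF, 7.12, 7.01 and 6.92 FPKM with bFGF/BMP4 and 11.9, 14.1 and 10.2 FPKM with BMP4. The bFGF/BMP4 libraries lay below all others, and the bFGF/EGF and BMP4 libraries overlapped. The log2 fold change of Rars2 was -0.69 (SE 0.14, adjusted p = 0.0027) with bFGF/BMP4 against bFGF/EGF, 0.07 (adjusted p = 0.7) with BMP4 against bFGF/EGF, and 0.76 (SE 0.14, adjusted p = 0.0037) with BMP4 against bFGF/BMP4, and both calls held in all 17 alternatives. In BMP4-treated NSCs Rars2 had the highest mean level of the mitochondrial set, 12.1 ± 2 FPKM (SD, n = 3), beside 11.8 ± 0.77 FPKM for Iars2, a difference within the spread.

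Mars2 (ENSMUSG00000046994, chr1:55276336-55287629), the mitochondrial methionyl enzyme, measured 5.81, 4.06 and 4.25 FPKM with bFGF/EGF, 4.89, 5.75 and 5.94 FPKM with bFGF/BMP4 and 3.72, 3.21 and 4.07 FPKM with BMP4. Only the treated groups were separate from each other, and the log2 fold change between them was -0.58 (SE 0.17, adjusted p = 0.037). This call was lost in 7 of 17 alternatives, among them leaving out any BMP4 library or the second or the third bFGF/BMP4 library, and 33.9% of the exon bases of Mars2 lie opposite to exons of Boll.

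The enzymes of the same amino acid could be compared within a library in 17 pairs, with Farsa and Farsb each set against Fars2 and Eprs1 set against Ears2 and Pars2. In 12 of the 17 pairs the ratio of the cytosolic to the mitochondrial FPKM was lower in all 3 bFGF/BMP4 libraries than in all bFGF/EGF libraries, in 2 it was higher, and in 3 the libraries overlapped, with a median change of -1.10 on the log2 scale. With BMP4, 14 pairs were lower, 1 was higher and 2 overlapped (median -1.24), and between the treated groups 8 pairs were lower with BMP4 and 9 overlapped (median -0.34). No share was computed for ratios of other genes. Among single genes, 27.5%, 27.8% and 18.3% lay below without overlap in these comparisons, and 30.2%, 32.6% and 20.5% above. Fars2 and Eprs1 each enter 2 pairs, so the pairs are not independent. These ratios are free of the scaling of a library but not of the gene lengths used for FPKM.

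The phenylalanine pair changed most. The ratio of Farsb to Fars2 was 18, 17.6 and 21.6 with bFGF/EGF, 3.47, 4.32 and 5.41 with bFGF/BMP4, and 2.87, 2.62 and 2.75 with BMP4, which is a change of -2.13 and -2.79 on the log2 scale. For cysteine, the ratio of Cars1 to Cars2 went from 6.11 ± 0.79 to 2.34 ± 0.26 and 1.26 ± 0.1 (SD, n = 3), and for valine that of Vars1 to Vars2 from 8.23 ± 0.92 to 2.15 ± 0.15 and 1.7 ± 0.15. For isoleucine the order of the enzymes turned: the ratio of Iars1 to Iars2 was 2.85, 2.6 and 3.06 with bFGF/EGF, 1.19, 1.28 and 1.55 with bFGF/BMP4, and 0.748, 0.759 and 0.874 with BMP4. While Iars2 stayed between 11.3 and 14.5 FPKM in all 9 libraries, its FPKM was above that of Iars1 in the 3 BMP4 libraries. Of the exon bases of Iars2, 24% lie opposite to exons of Bpnt1 and Rab3gap2. For Farsb, 25.4% lie opposite to exons of Sgpp2. The part of reads in common in these ratios was not tested.

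The pairs for serine and glutamate went the other way. The ratio of Sars1 to Sars2 was 7.01, 7.71 and 8.4 with bFGF/EGF and 9.38, 10.8 and 8.76 with bFGF/BMP4, and with BMP4 (10.2, 9.76 and 8.1) it overlapped with bFGF/EGF. The ratio of Eprs1 to Ears2 was 5.51, 2.72 and 5.06 with bFGF/EGF, 6, 5.94 and 5.6 with bFGF/BMP4 and 5.67, 6.88 and 6.85 with BMP4. In these pairs the mitochondrial gene had the more negative log2 fold change.

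**Figure D4:**
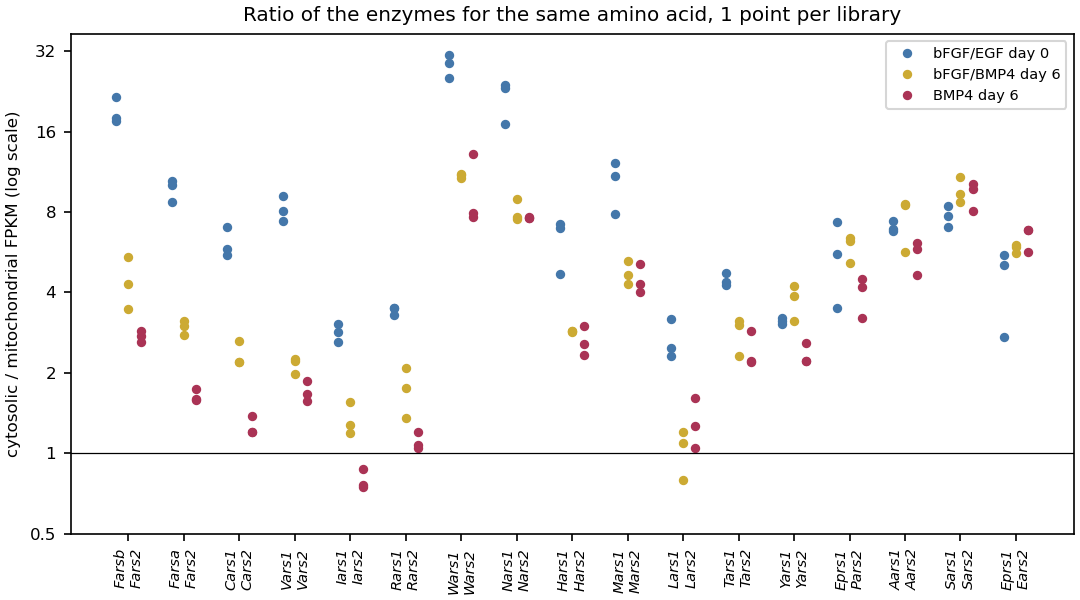
Ratio of cytosolic to mitochondrial FPKM for the 17 pairs of enzymes with the same amino acid, on a log axis, with 1 point per library and colors for the groups, ordered by the change from bFGF/EGF to BMP4. The Farsb to Fars2 ratio drops from about 19.1 to 2.75 on the left, the Iars1 to Iars2 ratio crosses 1 in the BMP4 libraries, and the Sars1 to Sars2 and Eprs1 to Ears2 ratios on the right do not fall.

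The genes that use charged tRNA in the cytosol fell together with the cytosolic enzymes. All 6 cytosolic elongation factor genes were lower in both treated groups than in bFGF/EGF-treated NSCs, with medians of -1.20 and -1.55, and 0 of 6 were called between the treated groups. Of all genes, 23.6% were lower with bFGF/BMP4 and 25.3% with BMP4. Between the treated groups 8.89% of all genes were lower and 12.2% higher. Eif5a, which helps ribosomes past difficult peptide bonds, went from 454 to 119 and 100 FPKM on average (log2 fold changes -1.92, adjusted p = 1.1e-05, and -2.18, adjusted p = 3.2e-06), and Eef1g, a subunit of the exchange factor of eEF1A, from 290 to 108 and 91.4 FPKM (-1.42 and -1.67).

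Of 10 mitochondrial translation factor genes, 0 were lower and 1 (Mtif3, an initiation factor) was higher in both comparisons with bFGF/EGF, with 1.82, 3.01 and 3.68 FPKM in the 3 groups and log2 fold changes of 0.71 (adjusted p = 0.012) and 0.97 (adjusted p = 0.0018). Tufm, the mitochondrial elongation factor Tu, measured 57.5, 55.5 and 59.1 FPKM on average. Of the 4 genes that amidate or formylate mitochondrial aminoacyl-tRNA, 1 (Mtfmt, the formyltransferase) was higher with bFGF/BMP4 (0.58, adjusted p = 0.0048), and 3 were higher with BMP4: Gatb (0.85, adjusted p = 0.0012), Mtfmt (0.66, adjusted p = 0.0019) and Qrsl1 (0.39, adjusted p = 0.034). Gatb and Qrsl1 encode subunits of the amidotransferase that makes mitochondrial glutaminyl-tRNA. Of all genes, 25.0% were higher and 23.6% lower with bFGF/BMP4, and 29.6% and 25.3% with BMP4. With bFGF/BMP4, 1 of 4 is thus at the share over all genes. For the translation factors, 1 of 10 is below that share in both comparisons.

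The amino acid response list of 29 genes had 18 lower and 3 higher with bFGF/BMP4, and 22 lower and 2 higher with BMP4, with medians of -1.01 and -1.13. Of all genes, 23.6% were lower and 25.0% higher with bFGF/BMP4, and 25.3% and 29.6% with BMP4. Between the treated groups these shares were 8.89% lower and 12.2% higher. Trib3, a pseudokinase induced by ATF4, and Asns, asparagine synthetase, had the largest falls with bFGF/BMP4: Trib3 went from 5.63 to 0.394 FPKM (-3.56, adjusted p = 5e-06) and Asns from 67.4 to 8.93 FPKM (-2.91, adjusted p = 1.6e-06). With BMP4 the largest were Chac1, a glutathione-degrading enzyme (8.23 to 0.499 FPKM, -3.80, adjusted p = 2.3e-06), and Asns (67.4 to 5.66 FPKM, -3.58, adjusted p = 3.2e-07). Between the treated groups 11 of the 29 were lower with BMP4 and 2 higher, with Cebpb (2.59, adjusted p = 0.00015) and Chac1 (-2.11, adjusted p = 0.00043) at the ends; the other higher gene was Phgdh, the first enzyme of serine synthesis (1.43).

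Atf4 itself, which is named here outside the rule, had means of 130, 102 and 61.4 FPKM, with log2 fold changes of -0.35 (adjusted p = 0.16) with bFGF/BMP4 and -1.11 (adjusted p = 0.00065) with BMP4 against bFGF/EGF, and -0.76 (adjusted p = 0.016) between the treated groups. ATF4 is controlled largely at translation, so its mRNA does not give the level of the protein. Of the 4 kinases of eIF2alpha, which act upstream of ATF4, Eif2ak2 (the interferon-induced PKR) was higher in both treated groups (3.16 FPKM against 10.1 and 9.08 FPKM, adjusted p = 2.4e-05 and 2.9e-05), and Eif2ak3 (PERK) was lower with BMP4 than with bFGF/EGF (-0.51, adjusted p = 0.0019) and than with bFGF/BMP4 (-0.47, adjusted p = 0.0083). Eif2ak4, the kinase GCN2 that senses uncharged tRNA, had values between -0.22 and 0.34, none called. Over all genes, 25.0% were higher with bFGF/BMP4, and 29.6% were higher and 25.3% lower with BMP4, against bFGF/EGF. Between the treated groups 8.89% were lower. The counts of 1 of 4 kinases higher in each treatment and 1 of 4 lower with BMP4, against bFGF/EGF, are thus near the shares over all genes.

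Genes that make and modify the tRNAs were counted next, beside the shares over all genes of 23.6% lower and 25.0% higher with bFGF/BMP4 and 25.3% and 29.6% with BMP4. Of 20 genes of RNA polymerase III and its factors, 8 were lower and 2 higher with bFGF/BMP4, and 11 lower and 2 higher with BMP4, with medians of -0.32 and -0.47. Polr3gl and Polr3g are alternative subunits: Polr3gl rose from 5.58 to 14.1 FPKM (1.32, adjusted p = 1.9e-05) with bFGF/BMP4 and to 9.68 FPKM (0.78, adjusted p = 0.00045) with BMP4, and was lower in the latter than in the former (-0.54, adjusted p = 0.011), whereas Polr3g had means of 1.15, 0.742 and 0.779 FPKM and was not called. Polr3e was lower with BMP4 (-0.87, adjusted p = 0.00017), and Brf1, an initiation factor of the polymerase, was the other call between the treated groups (-0.39, adjusted p = 0.04). With 2 of 20 lower between the treated groups, this list is near the share over all genes, 8.89%.

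Of 21 tested genes of tRNA end processing and modification, 14 were lower in each comparison with bFGF/EGF and 0 higher, with medians of -0.74 and -0.76; Adat3 was listed at 0 and was not tested. Qtrt1, a subunit of the enzyme that puts queuosine into tRNA (-1.97, adjusted p = 7.8e-05), and Nsun2, a tRNA cytosine methyltransferase (-1.78, adjusted p = 1.4e-05), had the largest falls with bFGF/BMP4, and Mettl1, which makes 7-methylguanosine (-2.12, adjusted p = 4.4e-06), and Qtrt1 (-1.92, adjusted p = 6.7e-05) with BMP4. Between the treated groups Trmt61a (-0.73, adjusted p = 0.0082) and Trmt1 were lower with BMP4, and Qtrt2 was higher (0.53, adjusted p = 0.037). For 21 genes, 2 lower is near the share over all genes (8.89%), and 1 higher is below it (12.2%).

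Of 8 editing and synthetase-like genes, 3 were lower and 1 higher against bFGF/EGF in each treatment, which for 8 genes is near the shares over all genes (23.6% and 25.0% with bFGF/BMP4, 25.3% and 29.6% with BMP4). Dtd1, which removes D-amino acids from tRNA, had -1.80 (adjusted p = 4.9e-05) and -1.25 (adjusted p = 0.00042), Yrdc, which makes threonylcarbamoyladenosine in tRNA, had -1.36 (adjusted p = 5.8e-05) with bFGF/BMP4, and Aarsd1, an editing protein related to the alanyl enzyme, had -1.19 (adjusted p = 0.027) with BMP4 at levels under 0.5 FPKM. Tars3, a threonyl-tRNA synthetase-like gene outside the 35, was higher with BMP4 than with bFGF/BMP4 (0.54, adjusted p = 0.019), with 5.33 against 3.63 FPKM. It was the only 1 of the 8 called between the treated groups, near the 12.2% of all genes higher there.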

How the data were processed

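The authors deposited 1 table of FPKM values (fragments per kilobase of gene, scaled to mapped fragments) for 55704 genes and 9 libraries. Per the submitters' processing notes, reads were handled with fastp 0.19.7, HISAT2 2.0.5 (mm39) and featureCounts 1.5.0-p3. The annotation release, the strand setting of the counting and the program that gave FPKM are not given in the sources used here. Values of genes whose exons overlap may therefore hold reads in common, and FPKM depends on the gene lengths of the authors' annotation. Beside the genes for which an overlap is given above, it covered 22.7% of the exon bases of Yars1 and 12.5% of those of Aars1, among others.

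Gene names came from the deposited Ensembl identifiers through GENCODE mouse release 39 (54749 matched). A filter kept genes averaging 0.1 FPKM or more, which were tested with limma 3.58.1 (R 4.3.3) on log2(FPKM + 0.1) over all 9 libraries, without covariates, with p-values adjusted by Benjamini-Hochberg over 20207 genes and a threshold of 0.05. The study's count test was not used because the deposited table holds FPKM values; the counts in the paper's supplement were not used here. Fragment numbers were rebuilt as whole multiples of what 1 fragment is worth (30860 of the 30860 genes above 0). They gave the depth, 15892851 to 17262981 fragments on genes per library, and an alternative with limma-voom. The fit was tested on simulated data. Library totals limit the precision of the weakest genes, and shares of fragments carry the SD between libraries.

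Members and lists were chosen with earlier results of these data known. Described in full were, per class, the called genes with the 3 largest rises and falls in each comparison and those called against the direction of most of their class or in opposite directions; of other lists, the 2 called genes with the largest change in each comparison were named, except 1 gene that is not reported here. Same-numbered libraries of different groups had correlations of deviations from -0.0839 to 0.125, so replicate numbers were not taken as pairs. Promoters were read from RefSeq (GRCm38.p6), coordinates of genes from GENCODE (GRCm39). Alternatives were another pseudocount (1), other filters (none, mean FPKM of at least 1), TPM and median-ratio scaling, limma-voom, a replicate block, only the groups compared, a fold change of at least 2, and leaving out each library.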

Additional observations from a re-analysis of the deposited data

How the results depend on the processing

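Over 17 alternatives, 1785 values of single synthetases were recomputed: 1705 kept their direction and their side of the threshold, 63 lost the call, 17 gained it and 0 turned direction while called. Another 38 values, called in neither fit, changed sign. The median log2 fold change of the cytosolic set ranged from -1.13 to -0.92 with bFGF/BMP4, from -1.41 to -1.20 with BMP4 and from -0.32 to -0.19 between the treated groups, and no scaling moved the median of all genes by over 0.1.

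The counts of cytosolic genes moved by over 1.5 times under no alternative but the fold limit. With a fold change of at least 2, the cytosolic genes called lower were 10 in place of 17 with bFGF/BMP4 and 0 in place of 6 between the treated groups. By the same limit the mitochondrial genes were 0 higher and 1 lower with bFGF/BMP4, 1 higher and 3 lower with BMP4, and 0 higher and 0 lower between the treated groups.

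The weakest count was that of 5 mitochondrial genes higher with BMP4 than with bFGF/EGF. It was 2 on the TPM scale, 3 with median-ratio scaling, 3 with limma-voom and 3 with only the groups compared, and from 2 to 4 when a library was left out (2 without the first bFGF/EGF or the third BMP4 library, 3 without the second or the third bFGF/EGF or second BMP4 library). Between the treated groups, the mitochondrial genes higher with BMP4 numbered 1 to 2 when a library was left out, with 1 without the second or the third bFGF/BMP4 or second BMP4 library. The 1 gene lower, Mars2, was lost without a filter (0) and numbered 0 to 1 when a library was left out. The cause of these losses was not tested.

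The replicate block changed the count of mitochondrial genes lower between the treated groups from 1 to 0 and lost the BMP4 calls of Pars2, Tars2 and Wars2 against bFGF/EGF, gained that of Eprs1 with bFGF/BMP4, and changed no other call. With depths of 15892851 to 17262981 fragments and 3 libraries a group, log2 differences of the mitochondrial set near 0.4 were at the limit of the test, as the calls of Hars2, Pars2 and Tars2 show.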
